A study of Mus musculus with 4 samples.

Results

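Complement proteases and regulators were followed in 4 mRNA libraries of immortalised mouse mesenchymal stem cell lines as the rows of 8 genes among 21881 in the table: the protease genes Masp1, Cfb and Cfd, the substrate genes C3 and C4b, the soluble inhibitor genes Serping1 and Clu, and the membrane inhibitor gene Cd55. The members were chosen by symbol, as complement genes taken to be made by mesenchymal cells, with the measured FPKM of all 4 libraries already known. Their levels and changes are therefore given as a description, and nothing is supported by them. Where limma calls of members are given, nothing is read from those either. The 2 vector libraries came from clone 6 and clone 12 infected with an empty pMMP-puro retrovirus, and the 2 NR6A1 libraries from the same clones infected with that retrovirus carrying Flag-HA-NR6A1, a tagged orphan nuclear receptor that is known mainly as a repressor. All 4 came from Dicer f/f cells (floxed alleles, called Dicer wild-type in the labels) of the C57BL/6 strain, fibroblast-like cells of adult bone marrow that grow out of marrow and can form bone, fat and cartilage. Each clone is 1 immortalised monoclonal line and gave 1 library per virus, so n = 2 in a group is 2 lines.

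Complement is a cascade of blood and tissue proteins that marks microbes and damaged cells. In the classical and lectin pathways a recognition protein activates serine proteases (C1r and C1s, or the MASP enzymes) that cut C4 and C2, and in the alternative pathway factor D cuts factor B. Both routes build enzymes that cut C3, while inhibitors in plasma and on cell membranes hold the cascade in check. Fibroblasts and marrow stromal cells are known as local sources of several components, and interferon-gamma, interleukin-6 and interleukin-1 are known to raise some of them.

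Nr6a1 checked the labels: in clone 6 it stood at 4.18 FPKM with vector and 783 with NR6A1, and in clone 12 at 2.80 and 598. FPKM is the number of fragments per kilobase of transcript, scaled to library size, so levels of different genes can be compared per length. The depth inferred from the steps between low values was 21000000 to 24550000 reads a library, at which 1 read on a transcript of 2000 bases was worth 0.023 to 0.0274 FPKM. Of 11 mesenchymal markers, 10 had a mean of at least 1 FPKM, and Thy1 did not exceed 0.0297 FPKM. Of 12 markers of macrophages and other leukocytes, 10 stayed below 1 FPKM in every library (all but Cd14 and Cd68), C1qa was listed at 0 throughout, and Ptprc, the pan-leukocyte marker CD45, was at 0.0234 FPKM or less. All 6 hepatocyte and all 5 endothelial markers stayed below 1 FPKM. Of 8 adipocyte markers, Fabp4, Pparg and Lpl were present and the other 5 below 1 FPKM, with Lep and Retn listed at 0.

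The members were low genes in these cells, though they were listed as products of mesenchymal cells. Their level in other mesenchymal cells or after stimulation was not tested. Of the 8, 5 stayed below 1 FPKM in every library (C4b, Cfb, Cfd, Serping1, Cd55), as did 10097 of all 21881 genes of the table. The median of the tested genes, all averaging at least 1 FPKM, was 16.9 to 17.4 FPKM. Summed over the members, the level in clone 6 was 8.57 FPKM with vector and 2.36 with NR6A1, and in clone 12 it was 13.1 and 4.32. Masp1 and Clu made up most of this sum with vector: Masp1 gave 52.2% and 40.9%, and Clu 36.1% and 34.0%. Only these 2 members averaged 1 FPKM or more, the level required for testing. Masp1 got there through its vector libraries alone, its NR6A1 values both being under 1 FPKM.

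**Figure D1:**
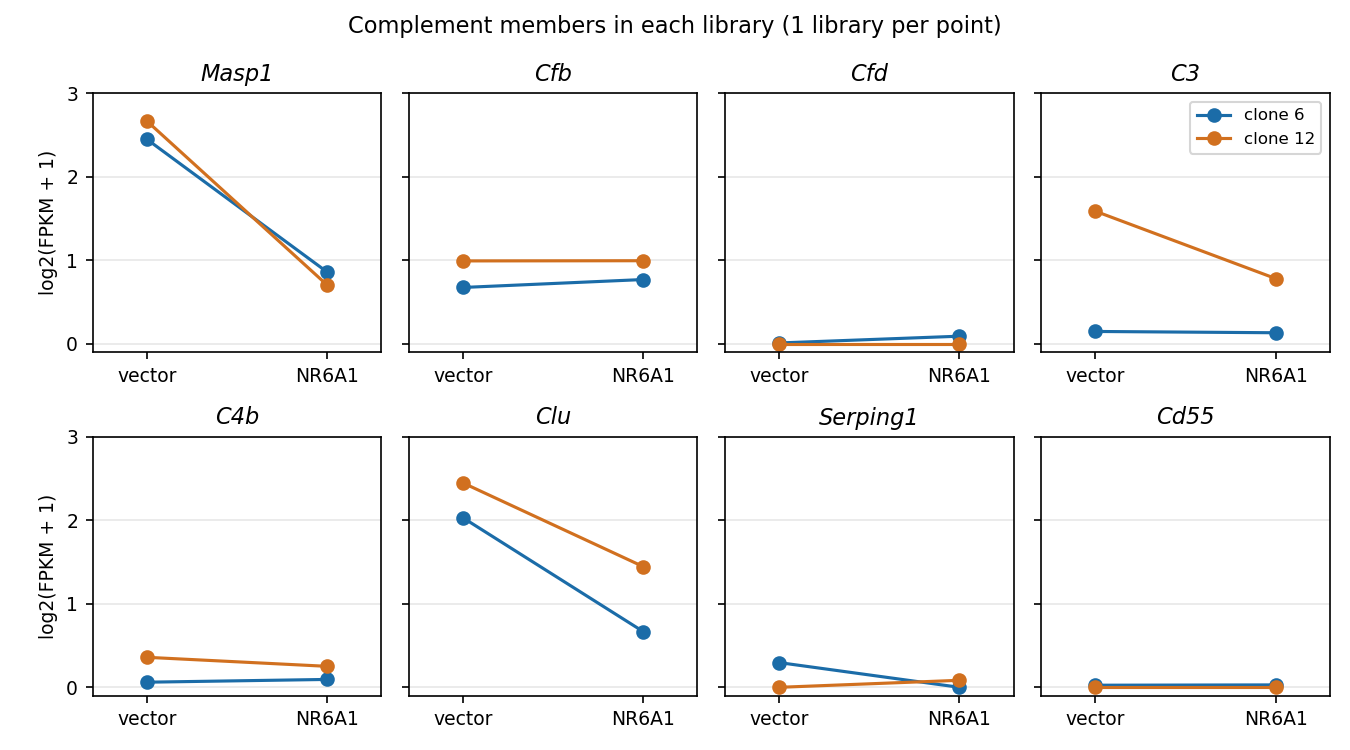
Level of each of the 8 members in each library, as log2(FPKM + 1), with 1 point per library and a line joining the vector and NR6A1 libraries of the same clone (clone 6 blue, clone 12 orange). Masp1 and Clu lie lower with NR6A1 in both clones, C3 is highest in the vector library of clone 12, and Cfd, Serping1 and Cd55 lie near 0.

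Masp1 was the member with the highest level with vector. The gene encodes a serine protease of the lectin pathway and, by alternative splicing, MASP-3, which activates factor D, and 1 value per gene sums these transcripts. In clone 6 it stood at 4.47 FPKM with vector and 0.815 with NR6A1, and in clone 12 at 5.37 and 0.629. Both NR6A1 libraries thus lay below both vector libraries, by 5.49 times in clone 6 and 8.53 times in clone 12 on the FPKM scale. The mean was 4.92 ± 0.633 FPKM over the vector libraries and 0.722 ± 0.131 over the NR6A1 libraries (SD, n = 2). On the log2(FPKM + 1) scale, on which low genes show less than their true fold, the change was -1.59 in clone 6 and -1.97 in clone 12, a mean of -1.78 ± 0.17 (SE of the limma fit over all genes tested). This was the 54th lowest of 11346 changes. The rank is only descriptive, as Masp1 was chosen with these values known and passed the filter through its vector libraries. The clones differed less, by 0.22 with vector and -0.16 with NR6A1 (log2, clone 12 minus clone 6).

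Clu encodes clusterin, a secreted chaperone that also keeps the terminal complement complex from inserting into membranes. The vector library of clone 6 held 3.09 FPKM and its NR6A1 library 0.588, and in clone 12 the values were 4.46 and 1.73. Both NR6A1 libraries were again the lower, 5.25 times in clone 6 and 2.59 times in clone 12. The means were 3.78 ± 0.971 and 1.16 ± 0.804 FPKM (SD, n = 2), and the log2 change was -1.36 in clone 6 and -1.0 in clone 12, a mean of -1.18 ± 0.17 (SE). Clone 12 held more Clu than clone 6 with either virus, by 1.44 times with vector and 2.93 times with NR6A1.

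Masp1 and Clu were the 2 of 8 members whose groups did not overlap, both with NR6A1 below vector, which held for 8.68% of all 21881 genes of the table. With limma and Benjamini-Hochberg adjustment over all 11346 genes, 0 of the 2 tested members passed, beside 0.0353% of all genes (4 genes, Nr6a1 among them). Without the 198 short RNA genes, Masp1 was 1 of 52 genes called, 0.466% of those tested, and Clu was not called. With a robust prior Masp1 was 1 of 38 genes called of 11346. These were the only 2 of 13 alternatives that called Masp1, and Clu was called in none. As the members were chosen with these values known, nothing is read from these counts. An exact permutation test of 2 libraries against 2 cannot go below p = 0.333, so no single gene can pass one here. In bulk RNA, fewer cells with a transcript and less of it per cell cannot be told apart. Among markers of other cell types, the summed adipocyte list, nearly all Fabp4, Lpl and Pparg, was at 413 FPKM with vector and 247 with NR6A1 in clone 6, and at 161 and 145 in clone 12. In clone 6 most of the fall was Fabp4, at 285 FPKM with vector and 129 with NR6A1. Lpl was at 86.7 and 85.5 there, and Pparg at 40.4 and 31.8. The summed leukocyte list, mostly Cd14 and Cd68, was at 8.13 to 10.7 FPKM in all libraries. The part of either list in the values of the members was not tested.

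C3, the protein on which every activation route converges, was highest in clone 12. Its level in clone 6 was 0.108 FPKM with vector and 0.0963 with NR6A1, and in clone 12 it was 2.01 and 0.720. Clone 12 stood above clone 6 with both viruses, 18.6 times with vector and 7.48 times with NR6A1. Against vector, the NR6A1 library was 2.79 times lower in clone 12 and 1.12 times lower in clone 6, where both values were near 0.1 FPKM, and the groups by virus overlapped. On the log2 scale the change with NR6A1 was -0.02 in clone 6 against -0.81 in clone 12, and with 1 pair per clone this contrast could not be tested.

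The promoter of C3 is shown because C3 differs most between clones among the members and is the 1 member past 1 FPKM in any library with a window among the RefSeq promoters used here. These held 3 of the 8 members (C3, Cfd and Cd55). The sequence is the 250 bases before the annotated start, GRCm38.p6 chr17:57228137-57228386, minus strand, 5′ to 3′. Capitals mark matches to a loose NF-kB pattern, GGG and CC with any 5 bases between, read on both strands.
C3: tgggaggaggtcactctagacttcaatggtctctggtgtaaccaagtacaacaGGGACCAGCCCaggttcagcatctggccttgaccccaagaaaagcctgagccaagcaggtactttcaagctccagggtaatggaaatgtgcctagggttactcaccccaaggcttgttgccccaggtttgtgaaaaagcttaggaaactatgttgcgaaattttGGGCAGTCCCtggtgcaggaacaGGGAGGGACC
It holds this pattern 4 times, 2 of them overlapping, at -197 to -188, -196 to -187, -33 to -24 and -10 to -1 from the start. The pattern is common: 45.8% of 32851 promoter windows of this length hold it. No match was found in this window to TTCNNNGAA, a STAT pattern (7.02% of windows), to an interferon response pattern of GAAA, any 2 bases and GAAA (2.98%), or to TCAAGGTCA, the extended single site of NR6A1 (0.387%), all read on both strands.

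C4b, which encodes C4 of the classical and lectin pathways, and Cfb, factor B of the alternative pathway, were low and stood higher in clone 12. C4b was at 0.0435 FPKM with vector and 0.0678 with NR6A1 in clone 6, and at 0.283 and 0.190 in clone 12. Its near-identical neighbour C4a was at 0.137 to 0.232 FPKM, and 34.6% of the 50-base words of C4b transcripts also occur in C4a transcripts, so the split of reads between them is uncertain. Cfb was at 0.597 FPKM with vector and 0.706 with NR6A1 in clone 6, and at 0.991 and 0.994 in clone 12. The libraries of clone 12 were thus the higher for both genes, 1.66 and 1.41 times for Cfb with vector and NR6A1, while the change with NR6A1 was 0.10 and 0.00 on the log2 scale for Cfb and 0.03 and -0.11 for C4b. C3, C4b and Cfb were the 3 of 8 members with both clone 12 libraries above both clone 6 libraries. This held for 25.6% of all genes of the table and 37.7% of those tested, and nothing is read from the count. None of C3, C4b and Cfb reached the filter, and no member was called between clones, where 21.9% of all genes tested were. Without the short RNA genes limma called Clu between clones, as it did 3490 of the 11148 genes tested, and nothing is read from this either.

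Cfd, Serping1 and Cd55 were at the limit of detection. Cfd encodes factor D (adipsin), the protease that cuts factor B and a known product of fat cells. It was at 0.00711 FPKM with vector and 0.0654 with NR6A1 in clone 6 and listed at 0 in both libraries of clone 12. Serping1, the C1 inhibitor that blocks C1r, C1s and the MASP enzymes, was at 0.228 FPKM in the vector library of clone 6, 0.0601 in the NR6A1 library of clone 12 and listed at 0 in the other two. Cd55, decay-accelerating factor, which takes apart the enzymes that cut C3, was at 0.0177 and 0.0203 FPKM in clone 6 and listed at 0 in clone 12. Most of these values are a few reads or less, so a difference between groups was not detectable at this depth.

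By level per length, the order with vector was Masp1, Clu, C3 (1.06 ± 1.34 FPKM), Cfb (0.794 ± 0.279), C4b (0.163 ± 0.17), Serping1 (0.114 ± 0.161), Cd55 (0.00883 ± 0.0125) and Cfd (0.00355 ± 0.00502; SD, n = 2). Masp1 and Clu almost touched, with the lower Masp1 value at 4.47 and the higher Clu value at 4.46 FPKM. Each of C3 and Cfb, C4b and Serping1, Serping1 and Cd55, and Cd55 and Cfd overlapped with its neighbour. With NR6A1 the order changed to Clu, Cfb (0.850 ± 0.204), Masp1, C3 (0.408 ± 0.441), C4b (0.129 ± 0.0868), Cfd (0.0327 ± 0.0463), Serping1 (0.0300 ± 0.0425) and Cd55 (0.0102 ± 0.0144), in which every gene overlapped with the next except C4b and Cfd.

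To set the members among their pathway, 51 further complement genes were listed by role, of which 48 were in the table. Of these, 37 stayed below 1 FPKM in every library, 8 of them at 0 throughout, and 11 reached the filter. Over all 21881 genes of the table, 10097 stayed below 1 FPKM in every library, 3994 of them at 0. With NR6A1, 6 of the 11 were lower and 2 higher in both clones, the median log2 change was -0.05 against 0.00 over all genes tested, and limma called 0 of them. Those with an unadjusted p under 0.05 were 4, C1ra, C1rb and C1rl among them, all lower; over all genes tested, 5.01% were lower at that p. The same 4 of 11 had both NR6A1 libraries below both vector libraries, beside 10.7% of all genes tested.

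The C1r genes and C1s were the most abundant of the complement protease genes by mean level over the 4 libraries. C1ra, which encodes C1r, was at 25.5 FPKM with vector and 21.4 with NR6A1 in clone 6 and at 32.5 and 20.7 in clone 12, a log2 change of -0.43 ± 0.12 (SE, limma adjusted p = 0.521). Its copy C1rb was at 12.5 against 10.2 FPKM and 14.9 against 9.93 (-0.41 ± 0.11, limma adjusted p = 0.493). The 2 genes are not independent: 48.0% of the 50-base words of C1ra transcripts and 59.2% of those of C1rb occur in the other. C1s, the partner protease that cuts C4 and C2, was at 4.51 against 3.74 FPKM in clone 6 and 14.1 against 6.21 in clone 12. Its log2 change was -0.22 in clone 6 and -1.07 in clone 12 (limma adjusted p = 0.6 with all 4 libraries). Without the vector library of clone 12 it was 0.08, but that fit drops the pairing by clone. It sets the vector library of clone 6 against the NR6A1 libraries of both clones, so the clone difference enters the value. C1rl, a C1r-like protease gene, was at 4.62 against 3.67 FPKM and 4.30 against 2.11 (limma adjusted p = 0.577). The changes of these 4 genes ran from -0.27 to -0.22 in clone 6 and from -1.07 to -0.54 in clone 12, a contrast that was not tested.

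The starts of C1ra and C1rb are shown because this pair had like values and shares sequence before the gene as well. Both are the 250 bases before the annotated start on the plus strand of GRCm38.p6, chr6:124512371-124512620 for C1ra and chr6:124570180-124570429 for C1rb, 5′ to 3′, with capitals as above and, in C1rb, also for the STAT pattern.
C1ra: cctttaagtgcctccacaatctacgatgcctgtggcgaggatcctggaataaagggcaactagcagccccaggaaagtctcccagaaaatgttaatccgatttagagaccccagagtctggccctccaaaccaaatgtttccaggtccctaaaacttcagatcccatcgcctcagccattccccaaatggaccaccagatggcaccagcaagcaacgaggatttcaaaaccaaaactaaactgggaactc
C1rb: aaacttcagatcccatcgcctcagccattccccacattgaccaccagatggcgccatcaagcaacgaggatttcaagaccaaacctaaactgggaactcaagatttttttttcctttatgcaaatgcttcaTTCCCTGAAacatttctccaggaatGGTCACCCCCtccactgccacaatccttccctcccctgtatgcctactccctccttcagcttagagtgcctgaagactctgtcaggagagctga
The longest run that these windows share exactly is 34 bases. C1rb holds TTCNNNGAA at -119 to -111 and the NF-kB pattern at -94 to -85, and in C1ra neither was found.

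**Figure D2:**
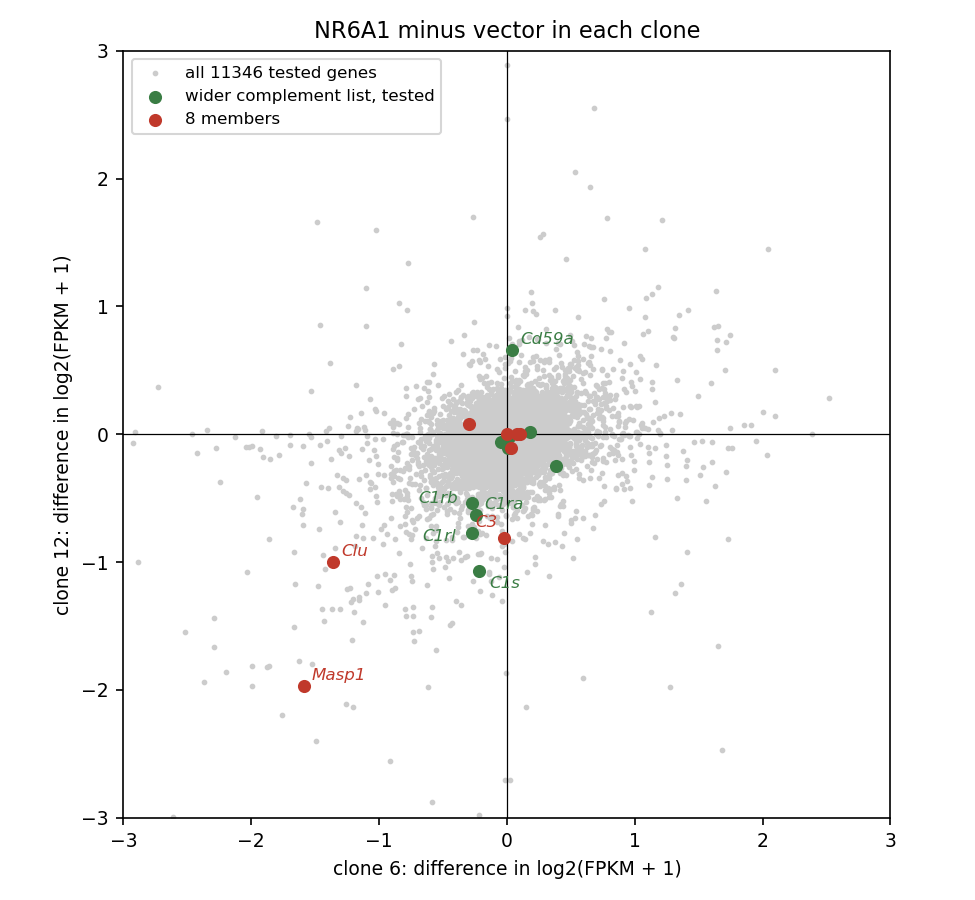
Difference in log2(FPKM + 1) between the NR6A1 and vector library of clone 6 (x axis) and clone 12 (y axis) for all tested genes (grey), 10 of the 11 tested genes of the wider complement list (green) and the 8 members (red). Masp1 and Clu lie low in both clones and C3 and C1s mainly in clone 12; 102 of the 11346 genes lie beyond the axes at 3 and are not drawn.

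Other abundant complement genes showed small differences with NR6A1. Cr1l, the rodent membrane inhibitor Crry, was at 16.4 against 18.8 FPKM in clone 6 and 15.6 against 15.8 in clone 12, vector against NR6A1 (log2 change 0.10 ± 0.09, limma adjusted p = 0.731). It was the highest of the listed complement inhibitors, Cd55 and Clu included. Colec12, a membrane collectin, was at 31.7 against 30.6 and 38.4 against 36.8 FPKM (-0.05 ± 0.07, limma adjusted p = 0.832). C1qbp, a mainly mitochondrial protein first found by its binding to C1q, was at 248 against 252 and 271 against 268 FPKM (0.00 ± 0.07, limma adjusted p = 0.996). Of 11 recognition genes, 9 stayed below 1 FPKM in every library, with C1qa, Mbl2 and Fcnb listed at 0 throughout. Besides Colec12, the exception was Cfp, which encodes properdin, the stabiliser of the alternative pathway enzyme, at 2.76 against 2.79 FPKM in clone 6 and 3.94 against 3.57 in clone 12 (-0.05 ± 0.13, limma adjusted p = 0.907). No terminal component reached the filter, the highest being C8g at 0.621 FPKM.

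**Figure D3:**
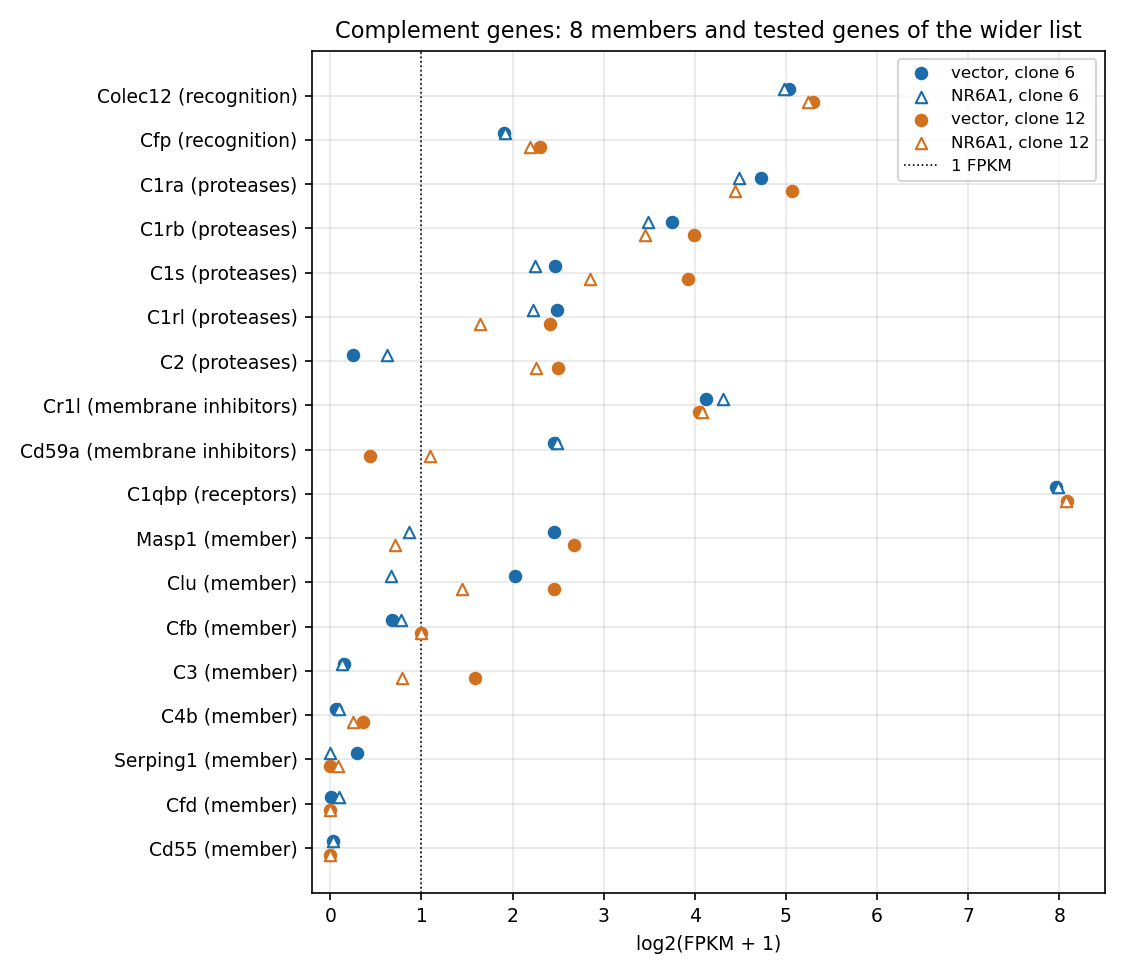
Level as log2(FPKM + 1) of the 8 members and of 10 of the 11 tested genes of the wider list, by role, with vector (filled circles) and NR6A1 (open triangles) in clone 6 (blue) and clone 12 (orange); the dotted line is 1 FPKM. The C1r and C1s genes, Cr1l, Colec12 and C1qbp lie right of most members, and Cd59a and C2 separate by clone.

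The second comparison asked how the 2 lines differ, with virus as the other factor. Each clone is 1 line, so p-values here measure no spread between lines. Of the 11 tested genes of the wider list, limma called 2, C2 higher and Cd59a lower in clone 12, beside 21.9% of all genes. C2, the protease related to factor B, was at 0.185 FPKM in clone 6 and 4.64 in clone 12 with vector and at 0.542 and 3.76 with NR6A1, a log2 difference of 1.94 ± 0.22 (SE, limma adjusted p = 0.0217, and 0.00379 to 0.141 under the alternatives). Cd59a, the membrane inhibitor of the terminal complex, went the other way, at 4.49 and 0.351 against 4.63 and 1.14 FPKM (-1.71 ± 0.22, limma adjusted p = 0.0236, and 0.00471 to 0.121). C2 reached the filter for testing through the clone 12 libraries alone, and Cd59a through the clone 6 libraries and 1.14 FPKM in the NR6A1 library of clone 12. Both calls were lost with no filter on low values. With 1 library left out, virus was also dropped as a factor and 1 clone held 1 library. In such fits the log2 difference ran from 1.75 to 2.13 for C2 and from -2.04 to -1.38 for Cd59a. The call of Cd59a was lost in all of them and that of C2 in most.

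C1s was at a log2 difference of 1.03 ± 0.24 towards clone 12 (SE, limma adjusted p = 0.0535). Leaving out the clone 12 libraries in turn gave 0.50 (vector left out) and 1.57 (NR6A1 left out), and it was called in 2 of 14 alternatives. C1ra differed by 0.14 ± 0.12 (limma adjusted p = 0.424). In all, 5 of the 11 had both clone 12 libraries above both clone 6 libraries, beside 37.7% of all genes tested, and 2 had them below, beside 30.3%. The median difference of the 11 was 0.14 on the log2 scale, against 0.04 over all genes tested.

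Of 19 signalling genes listed as known to act on complement genes, 14 were tested, and limma called 9 between clones, 8 of them higher in clone 12. Over all genes tested, 21.9% were called and 11.5% were called higher in clone 12. As this list was chosen with earlier results of these data known, nothing is read from its counts. With NR6A1, limma called 0 of the 14, beside 0.0353% of all genes (1 had an unadjusted p under 0.05, Nfkbia, lower). Cebpb, a factor of the acute phase response, was at 61.6 FPKM in clone 6 and 129 in clone 12 with vector and at 57.9 and 121 with NR6A1 (log2 difference 1.05 ± 0.07, limma adjusted p = 0.0134). The interleukin-1 receptor gene Il1r1 was at 4.82 and 11.0 against 5.53 and 11.4 FPKM (0.98 ± 0.09, limma adjusted p = 0.0186). Irf1 (0.90), Il6ra (0.69), Nfkb1 (0.66), Stat3 (0.43) and Il6st (0.38) were also higher in clone 12 and Ifngr1 (-0.60) lower, with limma adjusted p of 0.0237 to 0.0424. With no filter on low values 0 of the 9 were called (limma adjusted p 0.0798 to 0.117), and 5 were with quantile normalization or with no trend. When 1 library was left out, virus was also dropped as a factor and 1 clone held 1 library. Most of the 9 calls were lost in such fits. Those of Cebpb, Il1r1, Nfkb1 and Ifngr1 held when the NR6A1 library of clone 6 was left out. Rela, Tnfrsf1a and Ifngr2, the other genes among the most abundant of the list, were at 40.3 to 79.5 FPKM and were not called. The 5 untested genes, all ligands, stayed at 0.736 FPKM or less; Il6 was the highest of them, at 0.232 and 0.736 FPKM in clone 6 and clone 12 with vector and 0.0533 and 0.659 with NR6A1. The summed adipocyte list given above was also the lower in clone 12. Whether these genes bear on the level of C3, C4b, Cfb or C2 was not tested.

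**Figure D4:**
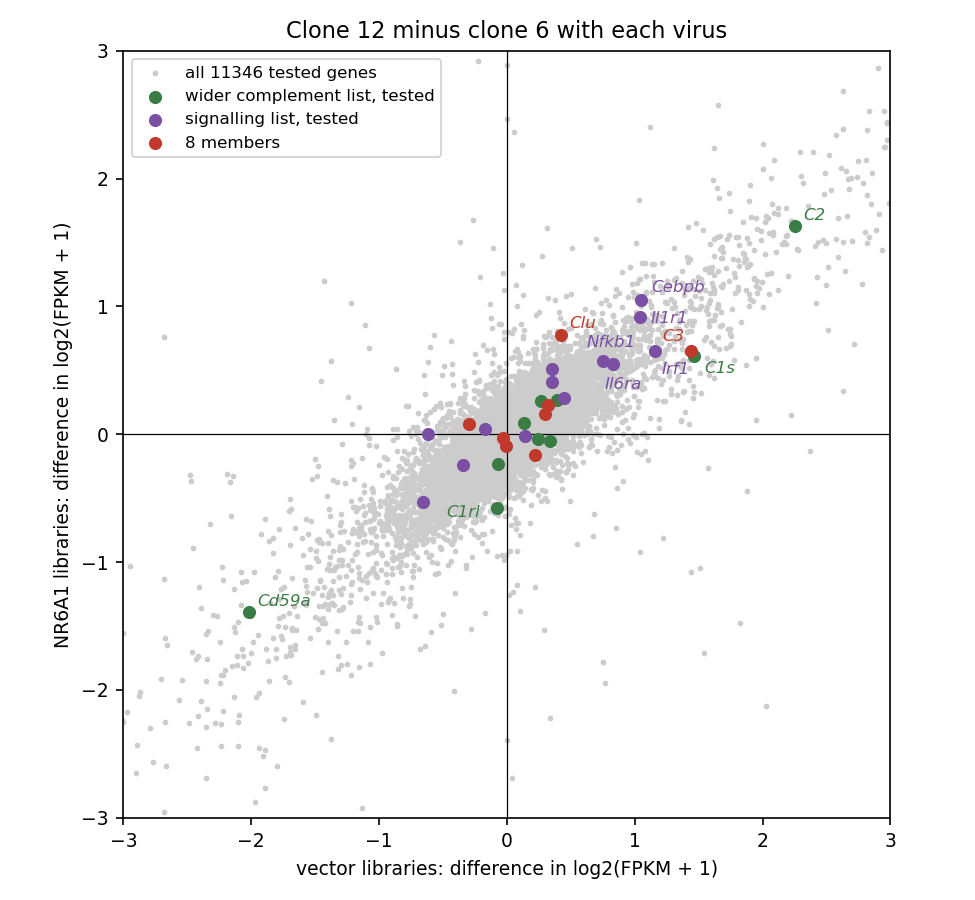
Difference in log2(FPKM + 1) between clone 12 and clone 6 in the vector libraries (x axis) and in the NR6A1 libraries (y axis) for all tested genes (grey), 10 of the 11 tested genes of the wider complement list (green), 13 of the 14 of the signalling list (purple) and the 8 members (red). C3, C2, Irf1, Cebpb and Il1r1 are higher in clone 12 with both viruses and Cd59a lower; 210 of the 11346 genes lie beyond the axes at 3 and are not drawn.

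Genes with the most similar pattern were taken for the members whose log2(FPKM + 1) spanned at least 1, as the 2 genes nearest by Euclidean distance between profiles centred on their mean over the 4 libraries. For Masp1 they were Fam20a, a pseudokinase gene, whose vector libraries held 30.1 and 32.7 FPKM against 8.18 and 6.36 for NR6A1 (distance 0.24), and the myoglobin gene Mb (0.29). For Clu they were Igfbp7, at 248 and 291 against 91.1 and 151 FPKM (0.14), and Anxa9 (0.24). For C3 they were Prps2, at 11.7 and 30.4 against 11.1 and 19.1 FPKM (0.12), and Mtm1 (0.21). Low genes show less than their true fold on this scale, so near genes need not share a fold in FPKM. C3 stood 18.6 times higher in clone 12 with vector and 7.48 times with NR6A1, unlike the Prps2 values given. Within a distance of 0.5 there were 7 genes for Masp1, 15 for Clu and 124 for C3. The pattern of C3 spans less on this scale (1.46) than those of Masp1 (1.97) and Clu (1.78), so these counts do not compare the members.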

How the data were processed

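The authors deposited FPKM, 1 value per gene and library for 21881 symbols. The submitters' processing notes name the tools TopHat 1.2.0 and Cufflinks 1.0.3 with mm9; which annotation or strand setting applied was not stated there. PolyA RNA was sequenced after DNase treatment, per the labels' protocols. No counts were used; depth was inferred from 1818 genes with 1 transcript of at least 1500 bases, of whose low values 43.8% to 48.1% fell within 0.1 of a whole number of reads (20% for an arbitrary scale), and is an estimate.

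log2(FPKM + 1) of 11346 genes averaging 1 FPKM or more was fitted with limma 3.58.1 in R 4.3.3 (two-sided, variance trend, virus and clone as factors, Benjamini-Hochberg over all genes, 0.05), with 1 residual degree of freedom and a prior of 2.9. Clone served as the pairing block because each line received both viruses; the clone difference correlated between viruses with r = 0.628 across genes, which are not independent replicates. On simulated data without short RNA genes, the test gave the right direction for nearly all of the genes given a change. Those genes all lay above the mean level of Masp1 and Clu. In most runs the share of false calls ran above the threshold used. For NR6A1 against vector, p-values rest on how far the change differed between 2 lines. Between clones they rest on how far the difference varied between viruses. Each clone is 1 line, so they measure no spread between lines there. The members and lists were chosen with earlier results of these data known. Named were the 8 members, genes of the wider list called or with a mean of at least 5 FPKM, and in the signalling and marker lists called genes and up to 4 abundant ones; others were chosen after their values were seen. Alternatives were pseudocounts of 0.1 and 5, other filters, 2 scalings, no trend, a robust prior, no short RNA genes, no block, a false discovery rate of 0.1 and each library left out. Fits with a library left out also dropped the second factor, so the pairing was lost and 1 group held 1 library. Promoters are from RefSeq (GRCm38.p6), transcript words from GENCODE. Values of 2 listed genes are not reported here, though they are counted in their lists.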

Additional observations from a re-analysis of the deposited data

How the results depend on the processing

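Masp1 and Clu kept a negative change with NR6A1 under all 13 alternatives that gave a value. This could hardly come out otherwise, as both NR6A1 libraries lay below both vector libraries, so it supports nothing. In fits with 4 libraries the log2 change ran from -2.61 to -0.79 for Masp1 and from -1.77 to -0.51 for Clu (the extremes came from the pseudocounts). With 1 library left out it ran from -1.89 to -1.67 for Masp1 and from -1.57 to -0.79 for Clu. C3 kept its direction with 4 libraries (-0.72 to -0.15) and ran from -1.13 to 0.31 with 1 left out. All results with 1 library left out drop the pairing and leave 1 library in a group, so the clone difference of C3 enters that range. Within each clone C3 did not rise with NR6A1 (-0.02 in clone 6 and -0.81 in clone 12). The excess of C3 in clone 12 ran from 0.31 to 2.70. A filter at 5 FPKM leaves out all 8 members. With no replicate block the count of genes called with NR6A1 was again 4 and that of the wider list again 0; for the single genes named the block changed no call. The count with NR6A1 was 7 with a pseudocount of 5, 2 with no filter, 38 with a robust prior, 52 without short RNA genes, 25 at a false discovery rate of 0.1 and 0 with any 1 library left out (limma; 96 to 286 genes at an unadjusted p under 0.05). Between clones the count of 2490 became 0 with no filter (limma; 5360 at an unadjusted p under 0.05), 1581 with no trend, 4163 at a false discovery rate of 0.1 and 41 to 889 with 1 library left out. The wider list's count of 2 between clones became 0 with no filter and 0 with a filter at 5 FPKM, which leaves 6 of its genes, neither of the 2 among them, 4 at a false discovery rate of 0.1, and 0 to 1 with 1 library left out. The cause of the other shifts was not tested. At the inferred depth, values under about 0.1 FPKM stand for a few reads, which limits Cfd, Cd55, Serping1 and C4b.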
